A study of Mus musculus with 6 samples.

Results

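The intercalated disc joins neighbouring cardiomyocytes end to end, and 10 genes for its gap junctions, desmosomes and adherens junctions were followed here in the apex of the mouse heart. They are the connexin genes Gja1, Gja5 and Gjc1, the adherens junction genes Cdh2 and Ctnna3, and the desmosome genes Dsp, Pkp2, Jup, Dsg2 and Dsc2. Every probe set annotated with 1 of these symbols was taken, which gave 29 of the 45101 probe sets on the array. Of these 29, 26 were bright enough to be tested and cover 9 of the 10 genes. The single probe set of Gja5 fell below the filter.

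Connexins assemble into channels that pass ions and small molecules from cell to cell, and so carry the action potential along the myocardium. Desmosomes anchor the intermediate filament desmin: the cadherins Dsg2 and Dsc2 cross the membrane, plakoglobin (Jup) and plakophilin (Pkp2) bind their tails, and desmoplakin (Dsp) links these to the filaments. Adherens junctions tie N-cadherin (Cdh2) through catenins to actin, and in the heart they merge with desmosomes into a mixed junction. Inherited defects of desmosome genes are known as a cause of arrhythmogenic cardiomyopathy.

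The study compared 3 hearts that carried an αMHC-Cre transgene with 3 hearts without Cre, 1 array per heart, all from male mice of 6 to 7 weeks. All 6 animals were Fog2flox/delta, with a floxed and a deleted allele of Fog2 (official symbol Zfpm2), which encodes a cofactor of GATA factors, so the hearts without Cre were not wild type either. The αMHC promoter drives Cre in cardiomyocytes, and the comparison asks how adult heart transcripts differ where Fog2 can be deleted. The transgene without a floxed allele was not part of the comparison, so Cre and the deletion cannot be told apart. Hearts are named no_Cre 1 to 3 and aMHC_Cre 1 to 3, and the labels give no link between same-numbered hearts of different groups. Values are log2 signals of single probe sets, and each difference is hearts with Cre minus hearts without.

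Array medians ranged from 5.72 to 5.81, and the highest signal of an array was 13.97 to 14.00. Hearts of the same group correlated at 0.980 to 0.987 across tested probe sets and hearts of different groups at 0.964 to 0.973. The 3' minus 5' signal of Actb, which can reflect RNA quality, was 0.30 to 0.41 without Cre, against 0.25 to 0.29 with Cre. That of Gapdh also separated the groups, in the opposite direction, at -0.14 to -0.08 in hearts lacking Cre and -0.07 to -0.04 in the others. The part of either in the results was not tested. The targeted gene has probe sets that moved in opposite ways (-0.88 and 1.68), so neither checks the deletion by itself. Markers of cardiomyocytes placed the tissue: the mean level of 10 such genes, among them Myh6, Tnnt2 and Ryr2, was 13.38 to 13.43 without Cre, against 13.41 to 13.46 with Cre, and 0 of the 10 changed. These levels lie near the top of the scale, where differences may be compressed. Of the 10, Mybpc3 had the lowest p and differed by 0.27 ± 0.12 (SE), with the groups apart (limma adjusted p 0.29).

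None of the 26 tested probe sets, and so none of the 9 tested genes, passed the test between the groups (limma, Benjamini-Hochberg adjusted p under 0.05). Over the whole array 5.23% of 27022 probe sets and 6.24% of 13062 genes passed, so a set of 9 genes with no call lies close to the background. At an unadjusted p under 0.05 there were 13 of the 26 probe sets, against 17.7% of all, and 3 of the 9 genes, against 19.0% of all. The 13 include all 5 tested probe sets of Dsg2, which read the same RNA and do not count as separate evidence. Hearts with and without Cre stood fully apart for 3 of the 9 genes, namely Gjc1, Pkp2 and Dsg2, against 26.1% of all genes. The median difference of the 9 genes was -0.14, beside -0.01 for all genes, with 3 above 0 and 6 below. Genes below are represented by their brightest probe set, and a p refers to the fit across the whole array.

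**Figure D1:**
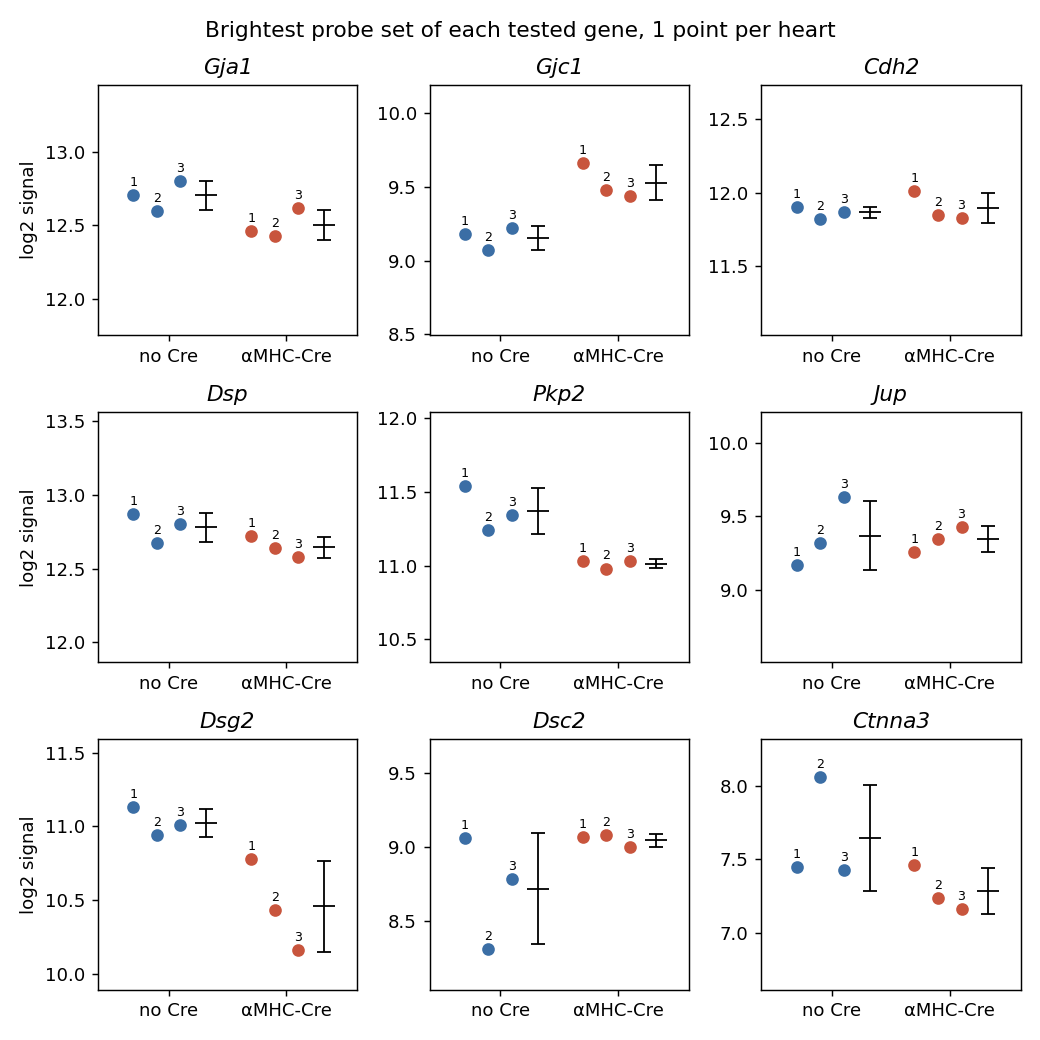
Log2 signal (vertical axis) of the brightest probe set of the 9 tested genes, 1 numbered point per heart, with the group mean and SD (n = 3) as a bar to the right; each panel spans the same height. The groups stand apart for Gjc1 (higher with Cre), Pkp2 and Dsg2 (lower with Cre) and overlap for the other 6 genes.

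Gene names are all that the files give for the place of a probe set, so the sequences shown here are start regions from RefSeq, which held 7 of them for 5 of the 10 genes. The 250 bases before the annotated start are printed for Gja1, Jup and Dsp because Fog2 acts through GATA factors and these windows differ in matches to their core motif. Capitals mark GATA or its reverse complement TATC, which do not overlap one another here. Gja1 (build GRCm38.p6, chr10:56377050-56377299, plus strand) has 1 match, which begins 134 bases before the start. Jup (chr11:100397791-100398040, minus strand) has 2, at 98 and 73 bases. The annotated span of Jup reaches position 100397839, inside this window, so these 2 distances count from an annotated start within the gene. Dsp (chr13:38151044-38151293, plus strand) has 0. Not printed are the window of Gja5, with 1 match, and those of Ctnna3, with 0, 2 and 2 matches.
Gja1: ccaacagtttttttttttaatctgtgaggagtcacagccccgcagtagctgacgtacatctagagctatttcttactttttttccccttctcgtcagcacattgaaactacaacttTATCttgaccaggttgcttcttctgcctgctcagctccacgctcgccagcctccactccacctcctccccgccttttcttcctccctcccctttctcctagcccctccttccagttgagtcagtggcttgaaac
Jup: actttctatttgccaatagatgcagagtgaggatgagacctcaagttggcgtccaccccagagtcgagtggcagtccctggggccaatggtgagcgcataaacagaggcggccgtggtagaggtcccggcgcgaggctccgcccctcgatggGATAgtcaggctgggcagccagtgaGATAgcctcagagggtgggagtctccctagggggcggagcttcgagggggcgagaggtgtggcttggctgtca
Dsp: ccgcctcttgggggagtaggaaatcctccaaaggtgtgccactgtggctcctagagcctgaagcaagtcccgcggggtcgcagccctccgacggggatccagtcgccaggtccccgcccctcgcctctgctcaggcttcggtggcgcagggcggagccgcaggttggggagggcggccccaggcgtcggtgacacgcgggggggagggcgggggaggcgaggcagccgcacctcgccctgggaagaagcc
Of 32817 such windows in the table, 53.6% hold at least 1 match, so a match is common, and none of these 3 genes passed the test. A match in letters is a description and not a binding site.

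Gja1 encodes Cx43, the main connexin of the working ventricle. Its brightest probe set (1437992_x_at) read 12.71, 12.60 and 12.80 without Cre, against 12.46, 12.43 and 12.62 with Cre. The highest heart with Cre, aMHC_Cre 3, lay just above the lowest without, no_Cre 2, so the groups overlapped. The difference was -0.20 ± 0.12 (SE; limma adjusted p 0.44, 95% interval -0.47 to 0.06). All 6 probe sets of Gja1 differed in the same direction, by -0.20 to -0.31, and in 1 of them (1438973_x_at) the groups stood apart. That one read 11.27, 11.20 and 11.31 without Cre against 11.01, 10.93 and 11.20 with Cre, where only the third decimal separates the nearest hearts. Of the 6 probe sets, 4 carry the suffix x, which Affymetrix gives to probes that may also match other transcripts.

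Gjc1, which encodes Cx45, a connexin typical of the conduction system and the early heart, pointed the other way. Its brighter probe set (1449094_at) read 9.18, 9.07 and 9.22 without Cre, against 9.66, 9.48 and 9.44 with Cre. Every heart with Cre lay above every heart without, in a difference of 0.37 ± 0.12 (SE), or 1.30-fold, that did not pass (limma adjusted p 0.12, 95% interval 0.11 to 0.64). The interval is not corrected for the number of probe sets tested and so can leave out 0 where the adjusted p does not pass. The other probe set (1447787_x_at) read 7.47, 7.58 and 7.51 without Cre, against 7.79, 7.84 and 7.88 with Cre. It also separated the groups, by 0.31 ± 0.11 (limma adjusted p 0.16).

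The connexins can be set against each other within a heart, since both are read from one array. The signal of Gjc1 minus that of Gja1 was -3.54, -3.54 and -3.58 without Cre, against -2.80, -2.95 and -3.17 with Cre. This shows a shift of 0.58 between the groups with no overlap. In a two-sided exact permutation test over the hearts p was 0.1, the smallest that 3 against 3 allow. It was 0.1 after Benjamini-Hochberg adjustment over the 4 pairs compared, all picked after their values were seen. That choice favoured pairs that separate, so neither p counts as evidence. The offset between different probe sets has no meaning as a level, so only the shift is read.

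Gja5 encodes Cx40, the connexin of atria, the His-Purkinje system and arterial endothelium. Its only probe set (1422192_at) read 2.50, -9.36 and 2.84 without Cre, against -4.74, 0.94 and 0.72 with Cre. These values scatter at the bottom of the scale in both groups, where a log2 value has little meaning, and no level or difference of Gja5 can be read from them. In the fit without a filter its adjusted p was 0.99 (limma). Of 7 tested atrial markers 2 rose, Myl7 (7.30) and Nppa (2.03), with limma adjusted p of 6.4e-06 and 3.2e-04. Myl7 averaged 3.72 without Cre, below the filter's mean of 5.16 over all hearts, so it was tested only through the hearts where it was high. The mean level of all 7 was 7.83 to 8.04 without Cre and 9.22 to 9.24 with Cre. Over the 5 markers other than these (left out after their values were seen) it was 7.97 to 8.05, against 7.92 to 8.03, and 2 of the 5 lay above 0 and 3 below. Sln, Dkk3 and Bmp10 stayed below the filter. Of 6 tested markers of the conduction system 0 changed, at 7.76 to 7.80 without Cre and 7.57 to 7.67 with Cre. Of the 6, 1 lay above 0 and 5 below, with a median of -0.24. Tbx5 had the lowest p and differed by -0.49 ± 0.12 (SE), with the groups apart (limma adjusted p 0.058). The part of such cells in the signals of Gjc1 and Gja5 was not tested.

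Cdh2, or N-cadherin, the classical cadherin of the disc, read 11.90, 11.82 and 11.87 without Cre, against 12.01, 11.85 and 11.83 with Cre (1418815_at). The hearts of both groups interleaved, with a difference of 0.03 ± 0.11 (SE) and a 95% interval of -0.22 to 0.29 (limma adjusted p 0.93). That sign was positive in 15 of 16 alternatives and -0.03 without aMHC_Cre 1. The other probe set (1449244_at) differed by 0.09 ± 0.13 (limma adjusted p 0.80).

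Ctnna3 encodes αT-catenin, a heart and testis α-catenin that also binds plakophilin. Its brighter probe set (1441193_at) read 7.45, 8.06 and 7.43 without Cre, against 7.46, 7.24 and 7.16 with Cre. A single heart, no_Cre 2, stood high, and the difference of -0.36 ± 0.18 (SE; limma adjusted p 0.36) shrank to -0.15 without it. The dimmer probe set (1441560_at) read 6.51, 6.47 and 6.46 without Cre, against 6.28, 6.16 and 6.13 with Cre. Here the groups stood apart, in a difference of -0.29 ± 0.11 (limma adjusted p 0.20), and no_Cre 2 was not the highest.

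Among the desmosome genes Dsg2, which encodes desmoglein-2, the desmoglein of the myocardium, differed most. Its brightest probe set (1439476_at) read 11.13, 10.94 and 11.01 without Cre, against 10.78, 10.43 and 10.16 with Cre. All hearts with Cre were below all without, with aMHC_Cre 1 nearest to them. The difference was -0.57 ± 0.16 (SE), or 1.48-fold lower, with a 95% interval of -0.93 to -0.20, and did not pass (limma adjusted p 0.087). The lowest adjusted p of any probe set of the 10 genes, 0.054, belonged to another one of Dsg2 (1425619_s_at), which read 8.63, 8.57 and 8.60 without Cre, against 8.24, 8.04 and 7.67 with Cre. Its difference was -0.61 ± 0.15. The hearts without Cre agreed closely there (SD 0.03) and those with Cre spread widely (SD 0.29).

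All 5 tested probe sets of Dsg2 gave a difference below 0, from -0.41 to -0.65, and separated the groups, which 12.1% of all tested probe sets did in that direction. The adjusted p of the 5 ran from 0.054 to 0.15. A further probe set (1426153_a_at), below the filter, averaged 4.88 ± 0.30 (SD, n = 3) without Cre, against 4.09 ± 0.31 with Cre. Among hearts with Cre, aMHC_Cre 1 was highest and aMHC_Cre 3 lowest in 5 of 5 tested probe sets. Without aMHC_Cre 1 the difference of the brightest probe set was -0.73 and passed (limma adjusted p 0.036). Without any other heart it was -0.42 to -0.61 and did not pass (adjusted p 0.13 to 0.25). In whole tissue, fewer cardiomyocytes and less transcript per cardiomyocyte cannot be told apart.

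**Figure D2:**
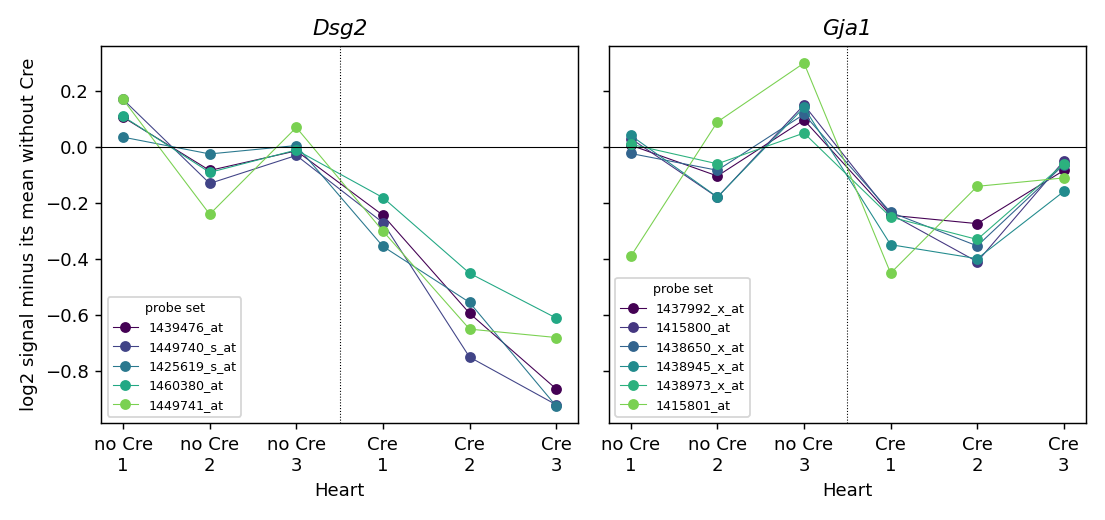
Log2 signal of each tested probe set of Dsg2 (left, 5) and Gja1 (right, 6) minus its own mean without Cre, by heart; thin lines join the values of 1 probe set, and hearts of a group have no order. For Dsg2 every value with Cre lies below every value of that probe set without Cre, lowest in aMHC_Cre 3, while for Gja1 the groups of 5 of the 6 probe sets overlap.

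Dsc2, which encodes desmocollin-2, the partner of desmoglein-2 across the junction, was on the other side of 0. Its brighter probe set (1426911_at) read 9.06, 8.31 and 8.78 without Cre, against 9.07, 9.08 and 9.00 with Cre. The hearts with Cre sat together at the level of no_Cre 1, and the difference of 0.33 ± 0.18 (SE; limma adjusted p 0.40) came down to 0.13 without no_Cre 2. The dimmer probe set (1421156_a_at) read 7.51, 7.16 and 7.41 without Cre, against 7.78, 7.92 and 7.54 with Cre. Its groups stood apart by 0.38 ± 0.15 (limma adjusted p 0.20).

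Dsc2 and Dsg2 belong to the cluster of desmosomal cadherin genes on mouse chromosome 18, where the RefSeq order is Dsc3, Dsc2, Dsc1, Dsg1c, Dsg1a, Dsg1b, Dsg4, Dsg3, Dsg2. Within hearts, Dsg2 minus Dsc2 was 2.06, 2.62 and 2.23 without Cre, against 1.71, 1.36 and 1.17 with Cre. The shift was -0.90 with no overlap, and the two-sided exact permutation p was 0.1, the smallest possible (0.1 adjusted over the same 4 pairs). As these pairs were picked after their values were seen, the permutation p of each does not count as evidence. Dsg2 also shifted against Cdh2 by -0.60, with no overlap and the same p of 0.1 by exact permutation. Against the brightest probe set of Dsp the shift was -0.43 with no overlap (exact permutation p 0.1), but against its other probe sets, compared after the first was seen, it was -0.20 and -0.23 and the groups overlapped. Of the rest of the cluster only Dsc3, a desmocollin best known from epithelia, was tested, with a difference of -0.22 ± 0.15 (limma adjusted p 0.51).

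Pkp2, or plakophilin-2, the arm-repeat protein of cardiac desmosomes, read 11.54, 11.24 and 11.34 without Cre, against 11.03, 10.98 and 11.03 with Cre (1449799_s_at). The hearts with Cre agreed closely and all lay below the others, in a difference of -0.36 ± 0.12 (SE), or 1.28-fold lower (limma adjusted p 0.15, 95% interval -0.63 to -0.08). The next probe set (1429183_at) read 10.74, 10.59 and 10.75 without Cre, against 10.61, 10.44 and 10.24 with Cre, where aMHC_Cre 1 lay above no_Cre 2. It differed by -0.27 ± 0.13 (limma adjusted p 0.34), or -0.17 without aMHC_Cre 3. The dimmest tested one (1460511_at) read 6.75, 7.59 and 7.39 without Cre, against 6.88, 6.77 and 6.63 with Cre. There no_Cre 1 lay among the hearts with Cre, and the difference of -0.48 ± 0.20 (limma adjusted p 0.26) became -0.73 without it and passed (adjusted p 0.036). Without no_Cre 2 it was -0.31 (limma adjusted p 0.47). A further probe set of Pkp2 (1420259_at), below the filter, differed by 0.04.

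Dsp encodes desmoplakin. Its brightest probe set (1435494_s_at) read 12.87, 12.67 and 12.80 without Cre, against 12.72, 12.64 and 12.58 with Cre, with overlap between the groups. The difference was -0.14 ± 0.12 (SE; limma adjusted p 0.61, 95% interval -0.40 to 0.12). The probe set 1435493_at read 12.16, 11.91 and 11.77 without Cre, against 11.60, 11.84 and 11.31 with Cre, and 1427610_at read 9.79, 9.62 and 9.89 without Cre, against 9.53, 9.53 and 9.23 with Cre. The groups overlapped in the former and stood apart in the latter, with differences of -0.37 ± 0.17 and -0.34 ± 0.13 (limma adjusted p 0.29 and 0.23). The former was -0.23 without aMHC_Cre 3. The brightest signals of Dsp and Gja1 lie at the upper end of the scale, where differences may be compressed.

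Jup, or plakoglobin, a catenin shared by desmosomes and adherens junctions, was read by 1 probe set (1426873_s_at). It was 9.17, 9.32 and 9.63 without Cre, against 9.26, 9.35 and 9.43 with Cre. The hearts with Cre lay inside the range of those without, with a difference of -0.02 ± 0.14 (SE; limma adjusted p 0.96, 95% interval -0.35 to 0.30). Its sign turned in 3 of 16 alternatives, so no direction can be given.

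**Figure D3:**
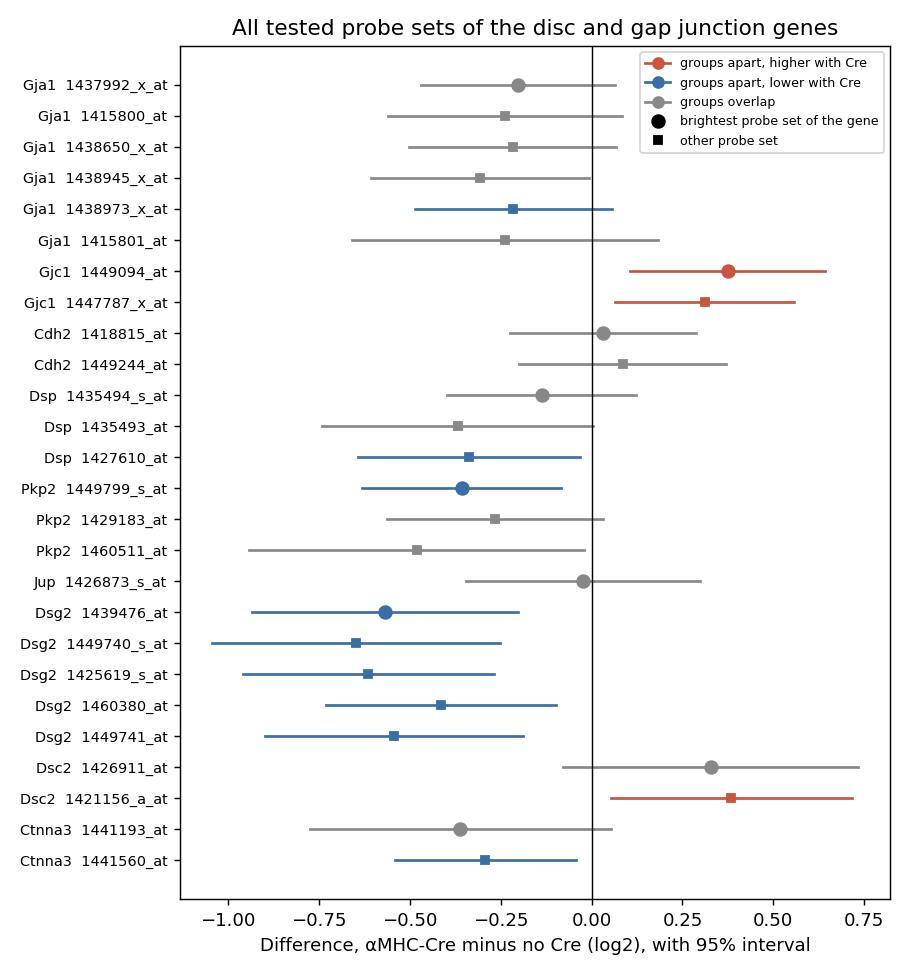
Difference between hearts with and without Cre on the log2 scale (horizontal axis) for the 26 tested probe sets, with its 95% interval from limma, coloured by whether the 3 hearts of each group overlap. Probe sets of a gene share their side of 0, from -0.65 for Dsg2 to 0.38 for Dsc2, and no probe set passed the adjusted threshold.

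Lists of other junction and disc genes covered 94 genes, of which 60 were tested. In these lists 2 genes rose and 2 fell, or 6.67% of those tested, close to the 6.24% of all genes. The 4 genes are the connexins Gja4 and Gja3 and the membrane proteins Scn3b and Cxadr. The median difference over the 60 genes was 0.05. At an unadjusted p under 0.05 (limma) there were 14 of the 60, against 19.0% of all genes.

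Of 20 other connexins and pannexins, 3 were bright enough to test, and 1 rose, 1 fell and Gjc3 differed by 0.18 (limma adjusted p 0.62). Gja4 encodes Cx37, a connexin of arterial endothelium. It read 7.39, 7.51 and 7.67 without Cre, against 8.19, 8.29 and 7.93 with Cre, clear of overlap, and its rise was 0.61 ± 0.14 (SE; limma adjusted p 0.038). The call of Gja4 was lost when no_Cre 1, no_Cre 2, aMHC_Cre 1 or aMHC_Cre 2 was left out (limma adjusted p 0.087 to 0.16). Of 9 arterial endothelial markers 2 rose, Gja4 itself and Bmx, and Bmx averaged 4.80 without Cre, below the filter's mean, so it was tested only through the hearts where it was high. The mean level of the 9 was 7.40 to 7.60 without Cre, against 7.71 to 7.84 with Cre. Over the 7 markers other than Gja4 and Bmx (left out after their values were seen) it was 7.73 to 8.00, against 7.89 to 8.04, which overlap, and 4 of the 7 lay above 0 and 3 below. Of 10 general endothelial markers 0 changed, at 8.94 to 9.31 and 9.13 to 9.28, and 8 lay above 0 and 2 below. Emcn had the lowest p among them and differed by 0.46 ± 0.13 (SE), with the groups apart (limma adjusted p 0.077). The part of these cells in the result was not tested.

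Gja3 encodes Cx46, a connexin best known from the lens. It read 8.17, 7.73 and 8.29 without Cre, against 7.54, 6.84 and 7.20 with Cre, again without overlap, and fell by 0.87 ± 0.20 (limma adjusted p 0.043). A dimmer probe set of Gja3 (1422339_at) differed by -0.72 (limma adjusted p 0.068). That dimmer one averaged 5.64 without Cre, against 4.93 with Cre. The latter is below the filter's mean, so it was tested only through the hearts where it was high. The call of the brighter probe set was lost without no_Cre 1, no_Cre 3, aMHC_Cre 2 or aMHC_Cre 3 (limma adjusted p 0.098 to 0.16).

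Of 11 tested scaffold and membrane genes of the disc, 1 rose and 1 fell, with a median of 0.11. Cxadr, the coxsackievirus and adenovirus receptor, is a cell adhesion protein of the disc. It read 8.68, 8.73 and 8.89 without Cre, against 8.22, 8.17 and 8.16 with Cre. The hearts with Cre were tightly grouped and lower, and it fell by 0.59 ± 0.11 (SE; limma adjusted p 0.020). Its other 3 tested probe sets also separated the groups, with differences of -0.25 to -0.52 that did not pass (limma adjusted p 0.075 to 0.33). The call was lost without no_Cre 3 or any one heart with Cre (limma adjusted p 0.056 to 0.087). Scn3b, a β subunit of sodium channels, read 4.46, 4.65 and 4.63 without Cre, against 5.54, 5.57 and 6.40 with Cre. It rose by 1.26 ± 0.22 (limma adjusted p 0.012). Without Cre it lay below the filter, which cut at a mean of 5.16 over all hearts, so it was tested only through the hearts where it was high. With 64 added to the unlogged signal the difference of Scn3b was 0.48. Tjp1, which encodes ZO-1, a scaffold that binds Cx43, differed by -0.05 ± 0.11 (limma adjusted p 0.87) and was picked after its value was seen.

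**Figure D4:**
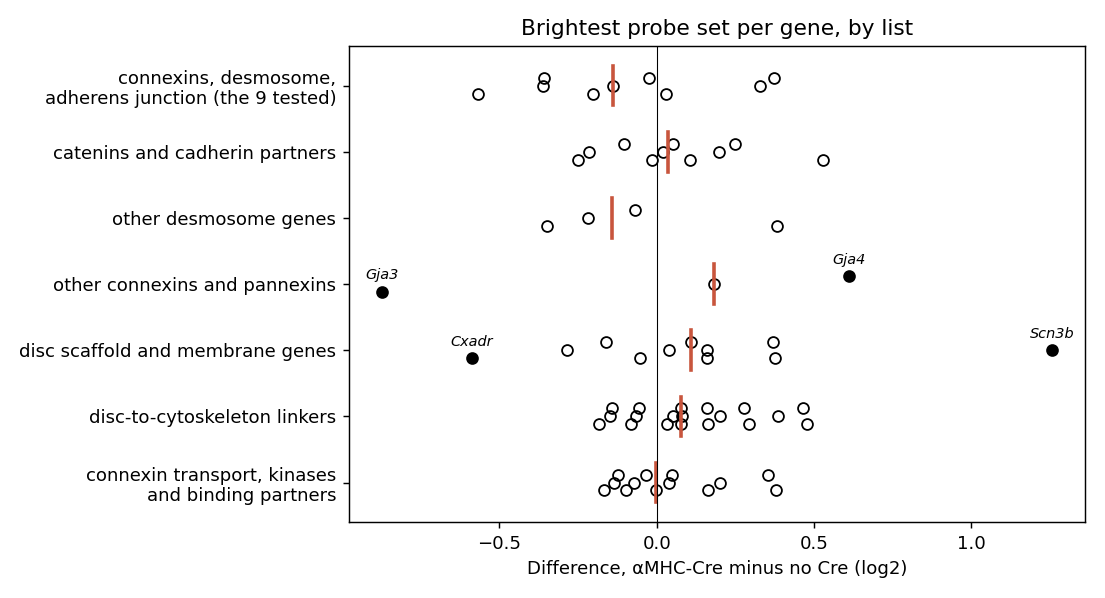
Difference between hearts with and without Cre (log2, horizontal axis) of the brightest probe set of each tested gene, in rows for the 9 tested disc and gap junction genes and for 6 lists of related genes. Filled points passed the adjusted threshold and are named, open points did not, and the vertical bar is the median of the row; the 9 genes hold no filled point.

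The genes for proteins that tie the junctions to the cytoskeleton showed no change that passed. Of 19 tested linker genes 0 changed, with a median of 0.08 and 13 above 0. The focal adhesion protein gene Zyx had the lowest p and averaged 8.44 ± 0.14 (SD, n = 3) without Cre, against 8.91 ± 0.11 with it (limma adjusted p 0.071). Zyx passed in 6 of 16 alternatives, but not with 1 heart left out (limma adjusted p 0.081 to 0.23). Of 10 catenins and cadherin partners 0 changed, with a median of 0.04, and Arvcf, a catenin that binds cadherin tails, differed most, by 0.53 ± 0.15 (SE; limma adjusted p 0.087). Of 4 other desmosome genes 0 changed, with a median of -0.14, and Perp had the lowest p (0.38 ± 0.18, limma adjusted p 0.31), with 0.17 left without no_Cre 2 (limma adjusted p 0.55). Of 13 genes for connexin transport, kinases and binding partners 0 changed, with a median of 0.00. Mapre1, which encodes EB1, a microtubule end protein that helps deliver connexins, differed by 0.38 ± 0.12 (limma adjusted p 0.11).

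Other cell types of the apex express some of the same junction genes, so their markers stand beside these results. Fibroblast markers rose in 7 of 10 cases, led by Col1a2, Postn and Pdgfrl, with a mean level of 9.27 to 9.44 without Cre, against 10.04 to 10.38 with Cre. Of 10 epicardial and mesothelial markers, cells that also hold desmosomes, only 3 were tested, of which Aldh1a2 and Upk1b rose. The mean level of the 3 was 6.50 to 6.96 without Cre, against 7.36 to 7.79 with Cre. Aldh1a2 passed in 15 of 16 alternatives, but Upk1b (limma adjusted p 0.041) in 8 of 16. The other probe sets of Upk1b were below the filter, and their groups overlapped. The epicardial markers Wt1, Msln, Krt19, Krt8 and Krt18 had means below the filter. Wt1 missed it narrowly (mean 5.15, against 5.16), and Krt18 ranged from 2.07 to 7.11 over the hearts. Of 5 tested epithelial markers, 9 smooth muscle and pericyte markers and 9 macrophage markers 0 changed. What these cells contribute to the signal of the disc genes was not tested.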

How the data were processed

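RNA from 6 heart apices was hybridised to Affymetrix arrays. The table the authors deposited holds log2 signals, 1 per array for each probe set, made with PLIER, per the submitters' processing notes. PLIER's settings and any scaling of arrays to one another are not stated there, and base 2 is inferred from the values. No other columns were found. The tests leave out 64 controls and, of all other probe sets, the dimmest 40% by mean (18015, below 5.16), and signals were not normalized further because array medians differed by at most 0.1. The test was that of limma 3.58.1 under R 4.3.3 (functions lmFit and eBayes; two-sided; no covariate) on 27022 probe sets, with Benjamini-Hochberg adjustment at 0.05. The procedure was checked on simulated data with planted changes larger than any difference seen for the 10 genes. That check does not show how well differences of their size are found. Symbols came from the platform annotation (34945 probe sets with 1 symbol, 932 with several, 9160 with none; only the first were named). Gene counts use the brightest probe set of each gene. The genes and lists were chosen with earlier results of these data known. All 10 genes are named with every tested probe set. From each other list up to 3 genes past the threshold per direction by lowest p are named. Where none passed, the gene with the lowest p is named for lists described by level or median. Exceptions are genes said to be picked after seeing values, those completing a count and those below the filter. Among cardiomyocyte markers, Myh6, Tnnt2 and Ryr2 are also named as examples. Alternatives were other normalizations, filters, variance settings, array weights, added offsets, the replicate block, the mean over probe sets and leaving out each heart. The number of arrays limits the precision. The SE, intervals and p-values of limma rest on a variance that eBayes draws partly from all tested probe sets. They therefore do not measure only the spread between these animals, and they depend on which probe sets are tested. No array batch is given in the sources used here.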

Additional observations from a re-analysis of the deposited data

How the results depend on the processing

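Over all tested probe sets 1412 changed, against 275 with no filter on dim probe sets and 600 to 1075 with 1 heart left out (limma). Of the probe sets of the 10 genes, 0 passed; 1 passed with quantile normalization, 2 with a 60% filter, 4 with trend and robust variance, 4 with array weights, 2 with 16 and 5 with 64 added to the unlogged signal, and 0 to 3 with 1 heart left out (3 without aMHC_Cre 1 and 1 without no_Cre 1). As genes, 2 passed with trend and robust variance (Dsg2 and Pkp2), 1 with array weights (Dsg2), 3 with 64 added (Dsg2 and Pkp2 lower, Gjc1 higher) and 0 to 1 with 1 heart left out (Dsg2 without aMHC_Cre 1). Median centring, no filter and the mean over probe sets gave 0 genes. The junction and disc lists held 4 called genes, against 0 with no filter, 8 with trend and robust variance, 8 with 64 added and 1 to 3 with 1 heart left out. Jup differed by 0.026 with array weights and by -0.13 to 0.10 with 1 heart left out, and Cdh2 by -0.027 to 0.066; every other tested gene of the 10 kept its sign in all 16 alternatives. Their causes were not tested.

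With the replicate number as a block, 909 probe sets changed, 0 of the 10 genes and 2 genes of the junction and disc lists. The deviations of same-numbered hearts from the group means correlated at -0.06, 0.21 and -0.19. Those of differently numbered hearts of the 2 groups correlated at -0.20 to 0.27, highest for no_Cre 3 with aMHC_Cre 1. Whether hearts shared a batch or order across the groups was not tested. Signals near the array maxima and at the bottom of the scale, as for Gja5, limit what can be read.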
